A study of Homo sapiens with 12 samples.

Results

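The E2F transcription factors and the retinoblastoma family were followed in LN229, an established human glioblastoma cell line, after 24 h at 3 supplies of carbon. The 10 genes were chosen by symbol: the activator E2Fs E2F1, E2F2 and E2F3, the repressor E2Fs E2F4 and E2F5, the atypical repressors E2F7 and E2F8, and the pocket proteins RB1, RBL1 (p107) and RBL2 (p130). They are 10 of the 22257 genes in the count files, and all 10 passed the filter on low counts. Each gene was read from 1 transcript, the one that the authors marked for it, or, for RB1, its single listed transcript.

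All cells were kept in RPMI medium with dialyzed serum, which lacks the small nutrients of whole serum. The groups were 1 mM glucose, 1 mM glucose with 5 mM acetate, and 10 mM glucose, with 4 RNA-seq libraries each. Acetate is a 2-carbon fuel that cells can turn into acetyl-CoA without glucose. The labels do not say whether the 4 replicates came from separate cultures, so p-values measure the spread between these libraries, which may be technical. LN229 is a single line, and no other line was compared.

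E2F factors bind short GC-rich elements near the start sites of genes for DNA replication and the cell cycle. In resting and early G1 cells the pocket proteins cover the activation domain of bound E2Fs: RB1 mainly that of E2F1 to E2F3, and RBL1 and RBL2 that of E2F4 and E2F5. Cyclin-dependent kinases phosphorylate the pocket proteins late in G1 and so release the E2Fs. E2F7 and E2F8 bind DNA without a dimerization partner and without a pocket protein, and they repress E2F targets in S and G2. E2F1, E2F2, E2F7, E2F8 and RBL1 are themselves known E2F targets, so the family is wired into its own regulation.

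Promoter sequences are shown because several members are targets of the family they belong to. The RefSeq promoter table (build GRCh38.p14) held 8 of the 10 members, and in 7 of them the start lay within 500 bases of the start of the counted transcript; the entry for RB1 lay 172724 bases away and was not used. Windows of 300 bases, from 250 before the start to 50 after it, were searched on both strands for 4 spellings of the E2F element, TTTCCCGC, TTTCGCGC, TTTGGCGC and TTTGCCGC, of which none overlapped another in the members shown. The 100 bases before the start are given 5′ to 3′ on the gene's strand for the 4 members with a match and for E2F7, which has none, with matches on either strand in capitals.
E2F1 (chr20:33686386-33686485, minus strand): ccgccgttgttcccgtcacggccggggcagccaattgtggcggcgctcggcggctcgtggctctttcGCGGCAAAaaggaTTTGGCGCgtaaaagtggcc
E2F2 (chr1:23531234-23531333, minus strand): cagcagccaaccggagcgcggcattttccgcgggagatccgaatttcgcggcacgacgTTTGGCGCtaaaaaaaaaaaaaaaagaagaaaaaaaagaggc
E2F3 (chr6:20401779-20401878, plus strand): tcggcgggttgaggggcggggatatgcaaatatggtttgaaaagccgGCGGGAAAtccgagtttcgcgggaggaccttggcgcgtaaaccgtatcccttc
RBL1 (chr20:37095998-37096097, minus strand): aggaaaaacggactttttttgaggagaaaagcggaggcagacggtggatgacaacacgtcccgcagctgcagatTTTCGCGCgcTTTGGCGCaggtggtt
E2F7 (chr12:77065570-77065669, minus strand): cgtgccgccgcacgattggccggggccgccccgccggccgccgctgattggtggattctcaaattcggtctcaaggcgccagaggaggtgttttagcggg

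An E2F spelling was thus present in 4 of the 7 windows, E2F1, E2F2, E2F3 and RBL1, against 3.33% of all 27305 promoters of the same length. E2F1 and RBL1 held 2 matches each; 0.154% of all promoters held 2 or more. The windows of E2F4, E2F7 and RBL2 held none of the 4 spellings. A match is a description of the letters in the window; no binding was measured.

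Raw counts were deposited, and over the 1 transcript kept per gene each of the 12 libraries held between 24412954 and 27183718 of them. The glial and glioma markers VIM, CD44 and NES were abundant, whereas GFAP, the astrocyte filament, lay between 0.739 and 1.47 CPM, the counts scaled to the effective total of each library. The other glial and glioma markers differed in direction. From 1 mM to 10 mM glucose the means of NES (452 to 1053 CPM), SOX2 (14.3 to 75.4) and S100B (86.6 to 186) were higher. Those of VIM (5249 to 3768 CPM), CD44 (1049 to 759), EGFR (128 to 85.6) and OLIG2 (24.9 to 8.47) were lower. The leukocyte genes PTPRC and ITGAM stayed below 1 CPM in every library, and the endothelial genes PECAM1 and CDH5 were at or near 0. Of the 3 leukocyte markers CD68, a lysosomal protein that many other cells also make, was the one tested, and it carried their summed level of 54.8 to 65.1 CPM in the 1 mM, 62.5 to 69 CPM in the acetate and 18.2 to 22.2 CPM in the 10 mM libraries. The summed level of 3 endothelial markers was at most 1.29 CPM. The 4 neuron markers summed to 412 to 461, 354 to 373 and 336 to 371 CPM in the same order. TUBB3 carried most of that sum (means of 255, 207 and 251 CPM), and the others differed in direction: SYT1 averaged 114, 108 and 26.6 CPM and MAP2 59.8, 50.8 and 71.6 CPM, while RBFOX3 stayed below 1 CPM. The part of these markers in the results was not tested. Libraries 1 mM replicate 3 and acetate replicate 1 stood apart: their deviations from the group mean correlated with transcript length across genes (Spearman rho = -0.486 and -0.481, against -0.178 to 0.228 in the other libraries). In 1 mM replicate 3, the short transcripts of E2F1, E2F4 and E2F5 were at their highest of the 4 libraries and the long ones of E2F3, E2F7, RB1, RBL1 and RBL2 at their lowest. E2F2, also a long transcript, went against this pattern with its highest value there, as did E2F8, of middle length, at its highest too. For this reason values without both libraries are given where they change a call. Their part in these results was not tested further.

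Between 1 mM and 10 mM glucose, 9 of the 10 members changed, against 67.5% of the 14416 genes tested (edgeR quasi-likelihood test, Benjamini-Hochberg adjusted p under 0.05). E2F1, E2F2, E2F3, E2F8, RB1 and RBL1 were higher at 10 mM glucose (6 of 10; 33.7% of all genes), and E2F4, E2F5 and E2F7 were lower (3 of 10; 33.8% of all genes). The share of members changed is thus to be read against a background in which most genes moved. The 2 groups of libraries did not overlap in 8 members, against 61.5% of all genes, with E2F1 and RBL2 the exceptions; 5 were higher (31.1%) and 3 lower (30.3%). The median log2 fold change of the members was 0.32, against 0.00 over all genes. In bulk RNA, more cells holding a transcript and more of it per cell cannot be told apart.

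Adding 5 mM acetate at 1 mM glucose moved 3 of the 10 members, E2F2, E2F8 and RBL1, all upward, against 13.7% of all genes called and 6.65% called higher. No member was called lower, against 7.09% of all genes. The libraries did not overlap in E2F2 and E2F8, both higher, against 15.6% of all genes, 7.35% higher and 8.2% lower. The size of each acetate difference was smaller than that of glucose in the same member: the members' median was 0.15 on the log2 scale. The 10 mM and acetate libraries were compared too, as the test of whether the 2 supplies led to different levels, and 8 of 10 members differed, against 62.8% of all genes. Here 5 members were higher at 10 mM glucose (31.0% of all genes), 3 were lower (31.8%), and 9 did not overlap (6 higher and 3 lower; 61.0% of all genes, 30.8% higher and 30.1% lower). The comparisons share libraries in pairs, so their agreement is not counted as evidence.

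**Figure D1:**
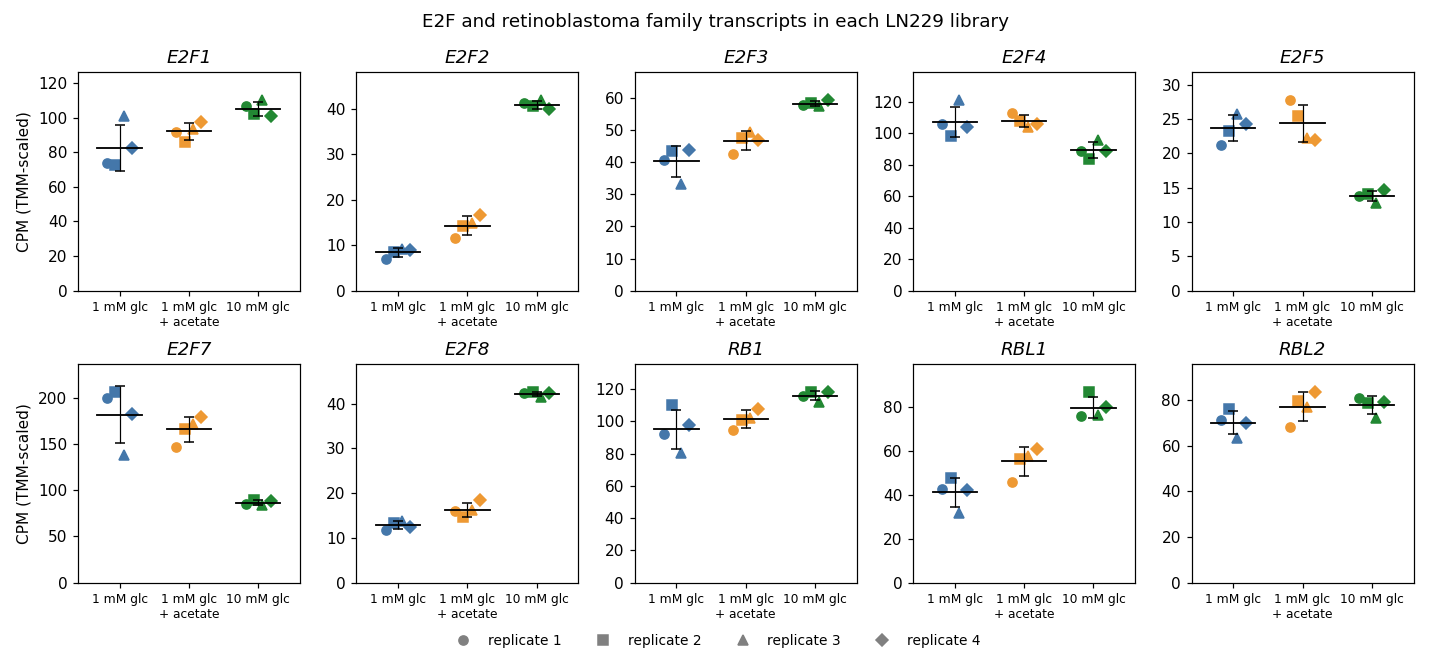
Levels of the 10 members in CPM after TMM scaling (y axis, 1 panel per gene with its own scale starting at 0) in the 4 libraries of each group (points, 1 shape per replicate), with the group mean and SD as bars. E2F2 lies between 39.8 and 41.8 CPM in the 10 mM libraries and at most at 16.7 CPM in the others, while E2F7 is lowest in the 10 mM libraries.

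Among the activators, E2F2 moved most. E2F2, which drives entry into S phase together with E2F1 and E2F3, measured 6.88, 8.54, 9.24 and 8.89 CPM in the 1 mM group, 11.5, 14.1, 14.8 and 16.7 CPM in the acetate group and 41.3, 40.5, 41.8 and 39.8 CPM in the 10 mM group. The 3 groups formed separate steps with no overlap. E2F2 was 4.87-fold higher at 10 mM than at 1 mM glucose (log2 fold change 2.28 ± 0.11 SE, adjusted p = 1.2e-10). Acetate raised E2F2 by 1.7-fold (0.77 ± 0.11, adjusted p = 0.00046), and the 10 mM libraries stood above the acetate ones by another 2.86-fold (1.52 ± 0.10, adjusted p = 7.3e-09). All 3 calls held in every alternative run.

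E2F1, the best-studied activator, which can also switch on apoptosis genes, measured 74, 72.5, 101 and 82.2 CPM at 1 mM glucose. It measured 91.9, 85.7, 93.7 and 97.4 CPM with acetate and 107, 102, 110 and 101 CPM at 10 mM glucose. The value of 101 CPM in 1 mM replicate 3 overlapped the 10 mM range, and the other 1 mM libraries lay below every acetate and 10 mM library. E2F1 rose 1.28-fold with glucose (0.35 ± 0.09, adjusted p = 0.00269). Its acetate difference missed the threshold (0.16 ± 0.09, adjusted p = 0.258), but without 1 mM replicate 3 it was 0.27 with adjusted p = 0.00659, and without both libraries that stood apart 0.27 with adjusted p = 0.00169. The difference between 10 mM glucose and acetate was 0.19 ± 0.09 (adjusted p = 0.0713), and it passed the threshold in 6 alternatives.

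E2F3, which like E2F1 and E2F2 binds RB1, measured 40.6, 43.5, 33.3 and 43.9 CPM in the 1 mM group, 42.6, 47.7, 49.6 and 46.9 CPM in the acetate group and 57.9, 58.5, 57.5 and 59.3 CPM in the 10 mM group. Every 10 mM library was above every other library. E2F3 rose 1.45-fold with glucose (0.53 ± 0.08, adjusted p = 2.8e-05) and was also higher at 10 mM glucose than with acetate (0.32 ± 0.08, adjusted p = 0.00237). The acetate difference of 0.21 ± 0.08 was not called (adjusted p = 0.0893); without acetate replicate 1 it was 0.25 with adjusted p = 0.0354, and without both libraries that stood apart 0.17 with adjusted p = 0.0189.

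The repressors E2F4 and E2F5, which form the complexes of resting cells with RBL1 and RBL2, were lower at 10 mM glucose. E2F5 measured 21.2, 23.3, 25.7 and 24.3 CPM in the 1 mM group, 27.7, 25.5, 22.2 and 22 CPM in the acetate group and 13.8, 14, 12.8 and 14.6 CPM in the 10 mM group. The 1 mM and acetate libraries overlapped, and the 10 mM libraries lay well below both. E2F5 fell 1.71-fold with glucose (log2 fold change -0.78 ± 0.09, adjusted p = 1.6e-06), and its acetate difference was 0.05 ± 0.08 (adjusted p = 0.763). It was also lower at 10 mM glucose than with acetate (-0.82 ± 0.09, adjusted p = 1.1e-06). On the opposite strand, 969 exon bases of E2F5 are shared with C8orf59; since the strand setting of the counting is not given in the sources used here, reads from those bases cannot be assigned to either gene. C8orf59 itself measured 43.3 ± 5.39 CPM at 1 mM and 35.7 ± 2.36 CPM at 10 mM glucose (SD, n = 4), a log2 difference of -0.28 ± 0.11 (edgeR adjusted p = 0.0312) that became 0.05 once a trend with length and GC content was removed.

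E2F4 measured 106, 98.1, 121 and 104 CPM in the 1 mM group, 113, 108, 104 and 106 CPM in the acetate group and 88.9, 83.6, 95.8 and 88.6 CPM in the 10 mM group. The highest 10 mM library was just below the lowest 1 mM library. E2F4 fell 1.2-fold with glucose (-0.27 ± 0.07, adjusted p = 0.00231), but scaling by library totals in place of TMM ended the call (-0.13, adjusted p = 0.106). That scaling moved the median of all genes by 0.14 in this comparison. The acetate difference of E2F4 was 0.01 ± 0.07 (adjusted p = 0.966), and that between 10 mM glucose and acetate was -0.27 ± 0.07 (adjusted p = 0.00218). Pseudogene copies of E2F4 (E2F4P1) and of E2F3 (E2F3P1 and E2F3P2) exist, and reads may have been split between a gene and its copies.

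The atypical pair E2F7 and E2F8, close relatives that each carry a pair of DNA-binding domains and are usually described together as repressors of S-phase genes, went in opposite directions. E2F8 measured 11.8, 13.3, 13.8 and 12.4 CPM in the 1 mM group, 15.9, 14.7, 16.2 and 18.4 CPM in the acetate group and 42.3, 42.5, 41.5 and 42.4 CPM in the 10 mM group. As in E2F2, the 3 groups did not overlap. E2F8 rose 3.29-fold with glucose (1.72 ± 0.07, adjusted p = 3.8e-11) and 1.27-fold with acetate (0.35 ± 0.07, adjusted p = 0.00641). The step from acetate to 10 mM glucose was 2.59-fold (1.37 ± 0.07, adjusted p = 4.2e-10).

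E2F7 measured 200, 206, 138 and 183 CPM in the 1 mM group, 147, 166, 172 and 179 CPM in the acetate group and 85.5, 89, 83.6 and 88.7 CPM in the 10 mM group. All 10 mM libraries lay below all others, while the 1 mM and acetate libraries overlapped. E2F7 fell 2.09-fold with glucose (-1.07 ± 0.10, adjusted p = 3.3e-07) and was also lower at 10 mM glucose than with acetate (-0.94 ± 0.10, adjusted p = 1.7e-06). With acetate the difference was -0.13 ± 0.10 (adjusted p = 0.434). The low value of 138 CPM is that of 1 mM replicate 3: without that library the acetate difference was -0.24 (adjusted p = 0.0214), and without both libraries that stood apart -0.19 (adjusted p = 0.00978).

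**Figure D2:**
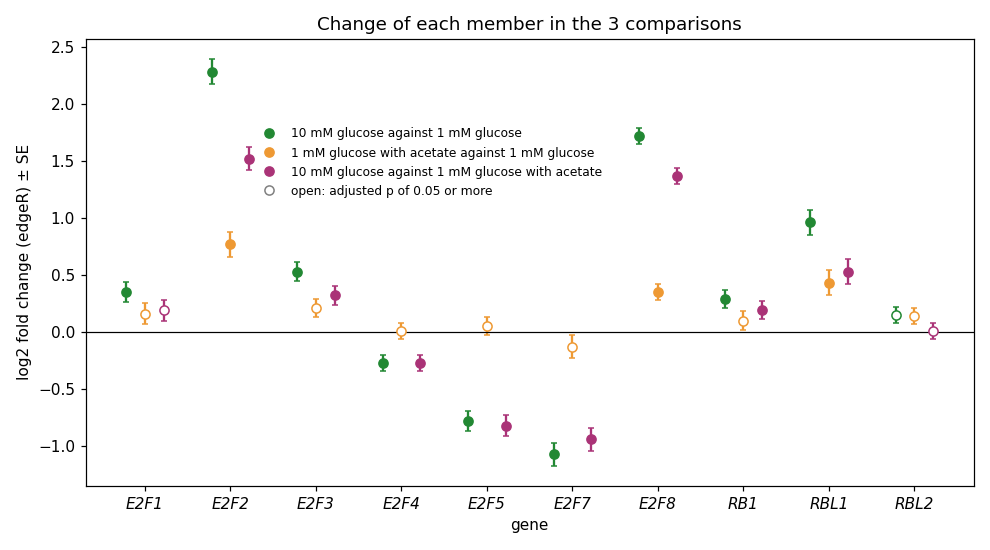
Log2 fold change of each member (y axis, with bars of 1 SE; genes on the x axis) for 10 mM against 1 mM glucose (green), acetate at 1 mM glucose (orange) and 10 mM glucose against acetate (purple); open points had an adjusted p of 0.05 or more. In green, E2F2 (2.28) and E2F8 (1.72) are the highest and E2F7 (-1.07) is the lowest.

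Among the pocket proteins, RBL1, which binds E2F4 in cycling cells, moved most. It measured 42.5, 47.7, 31.9 and 42.1 CPM in the 1 mM group, 45.6, 56.4, 57.7 and 61 CPM in the acetate group and 76, 86.6, 76.2 and 80.1 CPM in the 10 mM group. The 10 mM libraries stood apart from the rest, and acetate replicate 1, at 45.6 CPM, fell within the 1 mM range. RBL1 rose 1.94-fold with glucose (0.96 ± 0.11, adjusted p = 2.2e-06) and 1.35-fold with acetate (0.43 ± 0.11, adjusted p = 0.019). The acetate call was lost without acetate replicate 2, 3 or 4 (adjusted p = 0.0508, 0.0547 and 0.0634) and in a fit of only the 8 libraries compared (adjusted p = 0.0624). RBL1 was 1.45-fold higher at 10 mM glucose than with acetate (0.53 ± 0.11, adjusted p = 0.0006).

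RB1, the founding tumor suppressor of the family, measured 92.1, 110, 80.5 and 97.7 CPM in the 1 mM group, 94.4, 101, 102 and 108 CPM in the acetate group and 116, 118, 112 and 118 CPM in the 10 mM group. The 10 mM libraries were above all others by a small margin. RB1 rose 1.22-fold with glucose (0.29 ± 0.08, adjusted p = 0.00385), and its acetate difference was 0.10 ± 0.08 (adjusted p = 0.439). The difference between 10 mM glucose and acetate, 0.19 ± 0.08 (adjusted p = 0.0402), was near the threshold: testing without a filter gave adjusted p = 0.0531, leaving out acetate replicate 1, 2 or 3 gave adjusted p = 0.0969, 0.0768 and 0.0676, and leaving out 10 mM replicate 1, 2, 3 or 4 gave 0.074, 0.0852, 0.0501 and 0.083.

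RBL2, the pocket protein of resting cells, measured 71.3, 76.1, 63.5 and 69.9 CPM in the 1 mM group, 68.4, 79.7, 77.1 and 83.4 CPM in the acetate group and 81.1, 78.8, 72.1 and 79.1 CPM in the 10 mM group. The ranges of all 3 groups overlapped. The glucose difference was 0.15 ± 0.07 (adjusted p = 0.0748), and it passed the threshold without 1 mM replicate 2 (adjusted p = 0.0337), without 10 mM replicate 3 (adjusted p = 0.047), with library totals (0.29, adjusted p = 0.00174) and with the length and GC trend removed (0.09, adjusted p = 0.0332). The acetate difference was 0.14 ± 0.07 (adjusted p = 0.22), and it passed in 1 alternative, with the length and GC trend removed (0.10, adjusted p = 0.0484). That between 10 mM glucose and acetate was 0.01 ± 0.07 (adjusted p = 0.897). RBL2 shares 610 exon bases with AKTIP on the opposite strand, and AKTIP was lower at 10 mM glucose (19.3 ± 2.05 to 12.8 ± 0.444 CPM, SD, n = 4; edgeR log2 fold change -0.59 ± 0.10, adjusted p = 9.1e-05).

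To compare levels between genes, CPM were divided by transcript length in kb. At 1 mM glucose the order of mean levels was E2F4 (51.2 CPM per kb), E2F1 (33), E2F7 (31.6), RB1 (19.8), RBL2 (14.3), E2F5 (12.5), E2F3 (8.49), RBL1 (7.22), E2F8 (3.96) and E2F2 (1.62). The libraries of E2F1 and E2F7, of RBL2 and E2F5, and of E2F3 and RBL1 overlapped, so those neighbours could not be ordered. In 1 mM replicate 3, which stood apart, E2F1 was at the highest of its group (40.4 CPM per kb) and E2F7 at the lowest (24). With acetate the order of the means was the same, and RBL2 with E2F5 and E2F3 with RBL1 overlapped.

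At 10 mM glucose the order became E2F4 (42.6 CPM per kb), E2F1 (42), RB1 (24.2), RBL2 (15.9), E2F7 (15.1), RBL1 (14), E2F8 (13), E2F3 (12.3), E2F2 (7.87) and E2F5 (7.29). E2F4 with E2F1, RBL2 with E2F7, E2F7 with RBL1, and E2F2 with E2F5 overlapped. E2F7 lay above RB1 in the 1 mM group and below it in the 10 mM group, with no overlap in either, whereas E2F2 and E2F5 could not be ordered at 10 mM.

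The summed level of the 7 E2F factors and its makeup were computed per library; no test was made on them. The sum ranged from 137 to 151 over all libraries and was 142 ± 4.65 CPM per kb in the 1 mM group, 148 ± 2.43 in the acetate group and 140 ± 2.94 in the 10 mM group (SD, n = 4). E2F1, E2F2 and E2F3 together made up 30.2% ± 2.21 of it in the 1 mM group, 33.4% ± 1.14 in the acetate group and 44.4% ± 0.558 in the 10 mM group. E2F4 and E2F5 together made up 44.7% ± 2.32, 43.6% ± 2.5 and 35.6% ± 0.823 in the same order. These shares do not depend on how libraries are scaled. They do compare transcripts of different length, and the trend with length in 1 mM replicate 3 and acetate replicate 1 was not removed from them.

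E2F7 and E2F8 together made up 25.1% ± 4.35 of the sum in the 1 mM group, 23% ± 1.55 in the acetate group and 20.1% ± 0.821 in the 10 mM group, and the balance within the pair shifted. E2F7 went from 22.3% ± 4.38 to 19.6% ± 1.44 and 10.8% ± 0.539, and E2F8 from 2.78% ± 0.155 to 3.4% ± 0.26 and 9.29% ± 0.287. The ratio of E2F7 to E2F8 was between 5.64 and 9.59 in the 1 mM libraries, between 5.22 and 6.37 in the acetate libraries and between 1.14 and 1.18 in the 10 mM libraries. The 10 mM libraries thus held nearly as much E2F8 as E2F7 per kb. In the 1 mM group, the lowest E2F7 share (16.1%) and the lowest ratio to E2F8 (5.64) were those of replicate 3, which stood apart.

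**Figure D3:**
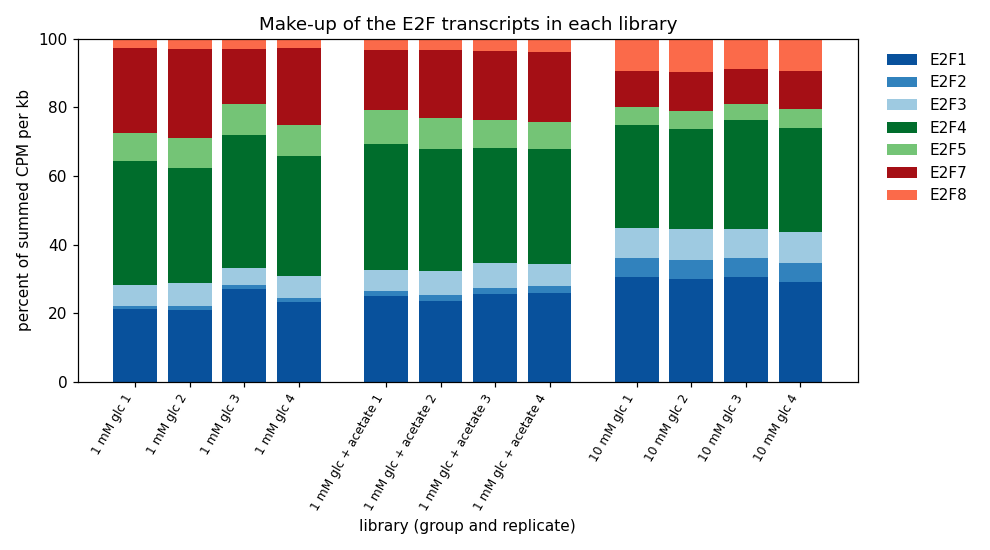
Share of each of the 7 E2F factors (colored segments) in their summed CPM per kb (y axis, percent), with 1 stacked bar for each of the 12 libraries (x axis). The segment of E2F7 averages 22.3% in the 1 mM and 10.8% in the 10 mM libraries, and those of E2F2 and E2F8 average 5.62% and 9.29% in the 10 mM libraries.

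The summed level of the pocket proteins was 41.3 ± 4.68 CPM per kb in the 1 mM group, 46.6 ± 3.62 in the acetate group and 54.1 ± 1.91 in the 10 mM group. RBL1 made up 17.4% ± 1.04, 20.8% ± 1.02 and 25.9% ± 1.03 of that sum. RB1 stayed the largest part, at 47.9% ± 1.01, 45.5% ± 1.17 and 44.8% ± 0.542, and RBL2 went from 34.7% ± 1.52 to 33.7% ± 0.46 and 29.3% ± 0.903.

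The gene whose log2 CPM followed each member most closely over the 12 libraries was found among 11190 genes with a mean of at least 5 CPM, by Pearson's r. With 3 groups of 4 libraries such an r mostly follows the group means, and it is given as a description. E2F2 was most like MCM6 and MCM10 (r = 0.997 for both), a subunit of the replicative helicase and a factor that helps it start, and E2F8 was most like AK4 and GINS1 (r = 0.998 for both), an adenylate kinase of mitochondria and a GINS subunit of the replicative helicase. RBL1 was most like HMGXB4 (0.995) and CCP110 (0.993), and E2F7 like CPEB4 and RAI14 (0.997 for both). E2F5 was most like RWDD2A (0.993) and TIMM9 (0.991), E2F3 like ARHGAP11B (0.983; its near-identical copy ARHGAP11A can share reads) and DBT (0.982), E2F4 like ZMYM6NB and TMEM219 (0.978 for both), and RB1 like ADAM10 and KLHL9 (0.988 for both). E2F1 (MEN1, 0.949, and AGPAT1, 0.948) and RBL2 (ZFP91, 0.967, and KIAA0317, 0.948) had the weakest best matches.

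The partners of the E2Fs were read next. TFDP1, the main dimerization partner of E2F1 to E2F6, measured 84.7 ± 5.2 CPM in the 1 mM group, 99.7 ± 2.76 in the acetate group and 144 ± 3.22 in the 10 mM group (SD, n = 4). It rose with glucose (0.77 ± 0.05, edgeR adjusted p = 6.7e-09) and with acetate (0.23 ± 0.05, adjusted p = 0.00801). TFDP2, the second partner, rose with glucose (0.42 ± 0.06, adjusted p = 9.7e-06), and its acetate difference was 0.16 ± 0.06 (adjusted p = 0.0786). E2F6, a repressor that works without pocket proteins, measured -0.07 ± 0.06 with glucose (adjusted p = 0.293) and 0.03 ± 0.06 with acetate (adjusted p = 0.79). TFDP3 had 2 counts over all libraries and was not tested.

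Of the cyclins and kinases that phosphorylate the pocket proteins, 7 of the 9 tested rose with glucose (33.7% of all genes) and 1 fell (33.8%). Cyclin A2 (CCNA2) rose 2.46-fold (1.30 ± 0.06, adjusted p = 9.8e-11), CCNE2 rose 1.93-fold (0.94 ± 0.09, adjusted p = 2.7e-07) and CDK2 rose 1.9-fold (0.92 ± 0.06, adjusted p = 5.2e-09). CDK4 fell (-0.26 ± 0.08, adjusted p = 0.00975), a call that library totals ended, and CCND1, the most abundant of them at 823 ± 36.7 CPM, measured 0.09 ± 0.06 (adjusted p = 0.221). The others that rose were CDK1 (1.04 ± 0.07), CDK6 (0.70 ± 0.13), CCND3 (0.65 ± 0.09) and CCNE1 (0.58 ± 0.07); CCND2 had 25 counts over all libraries and was not tested. With acetate, edgeR called 0 of the 9, against 13.7% of all genes. At an unadjusted p under 0.05, 3 of the 9 passed, all higher, against 4088 of all 14416 genes in either direction. DESeq2 called 1 higher, against 1046 of all genes. The fit without the libraries that stood apart called 3 higher, against 1882 of 14475 genes.

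Among the inhibitors of those kinases, 3 of the 4 tested rose with glucose (33.7% of all genes) and 1 fell (33.8%), and with acetate 2 fell (7.09%). CDKN1A (p21) fell with both supplies. It measured 213 ± 14.7 CPM in the 1 mM group, 151 ± 5.95 in the acetate group and 121 ± 7.22 in the 10 mM group (SD, n = 4), with log2 fold changes of -0.50 ± 0.06 for acetate (edgeR adjusted p = 0.00015) and -0.82 ± 0.06 for glucose (adjusted p = 2.2e-08). CDKN2D (p19) fell with acetate (-0.42 ± 0.09, adjusted p = 0.00933) and rose with glucose (0.44 ± 0.09, adjusted p = 0.0005). CDKN1B (p27) rose with glucose (0.26 ± 0.05, adjusted p = 0.00029) and measured 0.01 ± 0.05 with acetate (adjusted p = 0.931). CDKN1C (p57) rose with glucose from a low level, 0.433 ± 0.191 to 1.08 ± 0.202 CPM (SD, n = 4; edgeR adjusted p = 0.00103). CDKN2A, CDKN2B and CDKN2C, inhibitors of CDK4 and CDK6, had a total count of 0 over the 12 libraries. A total of 0 still allows an expected total of up to 3 counts over the 12 libraries together.

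The MuvB proteins join RBL2 and E2F4 in the DREAM complex of resting cells, and later join B-MYB and FOXM1 to activate mitotic genes. MYBL2 (B-MYB) rose 1.88-fold with glucose (0.91 ± 0.08, adjusted p = 2e-07), FOXM1 rose 1.71-fold (0.77 ± 0.06, adjusted p = 7.2e-08) and LIN9 rose 1.33-fold (0.41 ± 0.08, adjusted p = 0.00024). LIN37 fell (-0.66 ± 0.10, adjusted p = 5.8e-05), as did LIN54 (-0.34 ± 0.09, adjusted p = 0.00323), whose call library totals ended. LIN52 (0.11 ± 0.10, adjusted p = 0.359) and RBBP4 (0.06 ± 0.05, adjusted p = 0.263) were not called. With acetate, RBBP4 alone of the 7 tested passed, against 13.7% of all genes (0.16 ± 0.05, adjusted p = 0.0425), and it lost the call in 10 of 20 alternatives.

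Known targets were split by the phase in which they act; CCNA2, CCNE1, CCNE2 and CDK1 stand in a target list as well as among the cyclins and kinases. Of 33 G1/S targets of E2F, 31 rose with glucose (33.7% of all genes) and 2 fell (33.8%); the list had a median of 0.83 on the log2 scale, against 0.00 over all genes. ORC1, an origin recognition subunit, rose 2.52-fold (1.33 ± 0.06, adjusted p = 1e-10) and GINS1 rose 2.55-fold (1.35 ± 0.06, adjusted p = 1.4e-10). CDC6, which loads the helicase at origins, was lower, as was EZH2. CDC6 measured 233 ± 11.9 CPM at 1 mM and 118 ± 3.74 CPM at 10 mM glucose (SD, n = 4; edgeR log2 fold change -0.98 ± 0.05, adjusted p = 3.1e-10). EZH2, a histone methyltransferase, fell by 0.23 ± 0.04 (adjusted p = 0.00041), a call that library totals ended.

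With acetate, 13 of the 33 G1/S targets rose (6.65% of all genes) and 1 fell (7.09%), with a median of 0.17. MCM10 rose 1.4-fold (0.48 ± 0.07, adjusted p = 0.00072), and the helicase subunits MCM4 and MCM3 rose 1.26-fold each (0.33 ± 0.06 for both, adjusted p = 0.00189 and 0.00197). CDC6 was lower (-0.17 ± 0.05, adjusted p = 0.0351), and 10 of 20 alternatives ended that call. Without the libraries that stood apart, 23 of the 33 rose and 1 fell, whereas 8 rose in the fit of only the 8 libraries compared and 9 rose without 1 mM replicate 1 or without acetate replicate 4.

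Of 20 G2/M targets of DREAM, all 20 rose with glucose (33.7% of all genes), and their median was 1.21 on the log2 scale. KIF20A, a kinesin of cytokinesis, rose 4.11-fold (2.04 ± 0.07, adjusted p = 2.4e-12), AURKA, a spindle kinase, rose 2.94-fold (1.56 ± 0.06, adjusted p = 9.8e-12), and BUB1, a checkpoint kinase, rose 2.58-fold (1.37 ± 0.06, adjusted p = 6.6e-11). With acetate edgeR called 0 of the 20 (13.7% of all genes), with a median of 0.02. At an unadjusted p under 0.05, 2 were lower, against 4088 of all 14416 genes in either direction. DESeq2 called 1 lower, against 1340 of all genes, and limma-voom called 0, against 1947 in either direction. Without the libraries that stood apart 3 of the 20 were called higher and 2 lower, against 1882 and 1846 of the 14475 genes tested there. Whether acetate moved the G1/S and G2/M targets differently was not tested.

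In the promoter table, 16 of 28 G1/S targets held an E2F spelling, against 3.33% of all promoters. The cell cycle homology region, the element through which DREAM binds G2/M genes, was searched as TTTGAA or TTCGAA on both strands: 11 of 16 G2/M targets held one, against 16.6% of all promoters. E2F3 and RBL2 were the members with such a match.

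**Figure D4:**
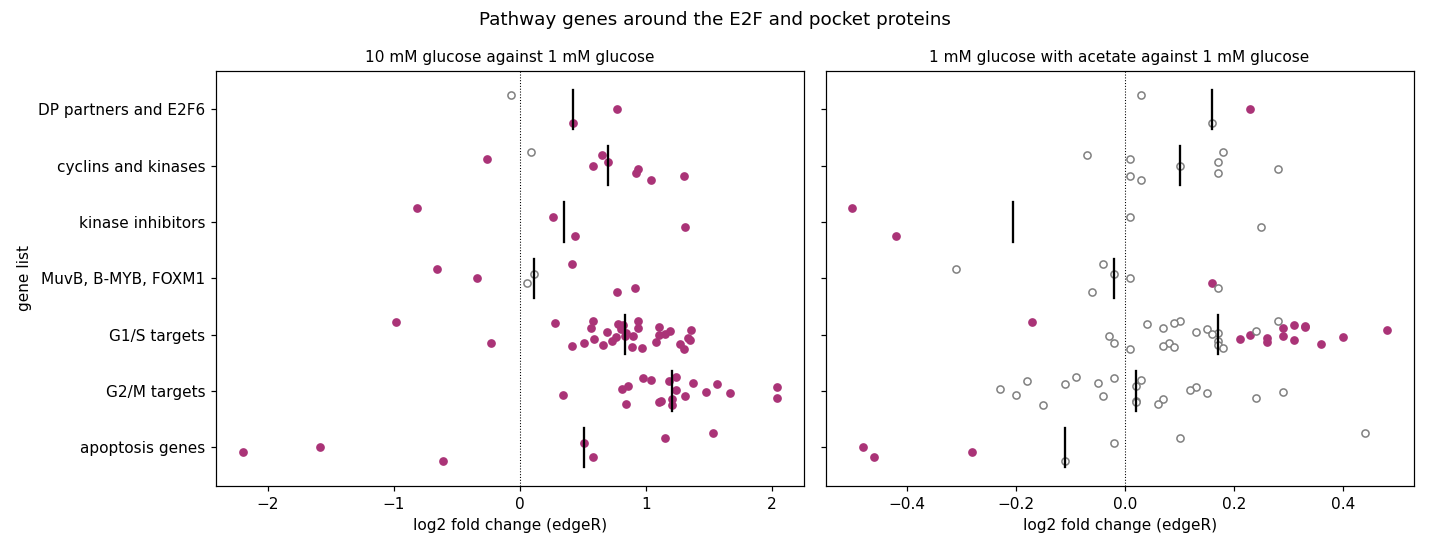
Log2 fold change of each tested gene (x axis, with a range of its own in each panel; points filled in purple where adjusted p is under 0.05 and open otherwise) in 7 lists of pathway genes (y axis), for 10 mM against 1 mM glucose (left) and acetate at 1 mM glucose (right), with the median of a list as a vertical bar. All 20 G2/M targets are filled and above 0 on the left, with a median of 1.21, and all are open on the right, with a median of 0.02.

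Of 7 apoptosis genes reported as targets of E2F1, 4 rose (33.7% of all genes) and 3 fell (33.8%) with glucose. PMAIP1 (NOXA) measured 260 ± 17.4 CPM in the 1 mM group, 214 ± 11.8 in the acetate group and 56.5 ± 3.22 in the 10 mM group (SD, n = 4), a fall with glucose of 4.6-fold (edgeR log2 fold change -2.20 ± 0.07, adjusted p = 1.3e-12) and with acetate of 1.22-fold (-0.28 ± 0.06, adjusted p = 0.00841). BBC3 (PUMA) fell 3.01-fold with glucose (-1.59 ± 0.13, adjusted p = 6.1e-08), BID, a BH3-only protein, fell 1.52-fold (-0.61 ± 0.09, adjusted p = 4.9e-05), and APAF1, the core of the apoptosome, rose 2.21-fold (1.15 ± 0.09, adjusted p = 2.8e-08). With acetate 3 of the 7 fell (7.09% of all genes): beside PMAIP1 these were BCL2L11 (-0.46 ± 0.10, adjusted p = 0.00566) and BBC3 (-0.48 ± 0.12, adjusted p = 0.0152), the last of which lost its call in 3 of 19 alternatives. Unlike PMAIP1 and BBC3, BCL2L11 rose with glucose (0.58 ± 0.09, edgeR adjusted p = 5.4e-05).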

How the data were processed

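RNA from LN229 cells was sequenced in 12 libraries, 4 per group, with standard Illumina library preparation per the labels' protocols. The authors deposited raw counts per transcript, whole numbers that were not normalized, on build hg19 per the submitters' processing notes; no aligner, counting tool or strand setting is named in the sources used here. Of 34917 transcripts, 1 per gene was kept: the one marked in the deposited files, and otherwise the one with the highest total, which gave 22257 genes. Over the transcripts kept, total counts per library ran from 24412954 to 27183718. Genes passing filterByExpr (14416) were scaled by TMM (factors 0.952 to 1.06) and fitted in edgeR 4.0.16 (R 4.3.3) with 1 mean per group over all 12 libraries and the quasi-likelihood test. Benjamini-Hochberg adjustment ran across all tested genes, and calls need an adjusted p under 0.05. SE is the absolute log2 fold change over the square root of F. Fold changes are group differences of the fit, and CPM use TMM library sizes. Transcript lengths came from GENCODE v29, matched by accession for 20991 genes, by symbol for 725 and not for 541.

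The members and gene lists were chosen with earlier results of these data known, and no test was made over a list. All 10 members were named, with every tested gene of the lists of partners, kinases, inhibitors and MuvB proteins. Of the other lists, the 3 called genes with the smallest p per comparison and those against the majority were named, as were the 2 genes most like each member. On simulated counts for the acetate comparison (14204 genes) 32.8% of genes changed by 1.25-fold and 100% of those changed by 1.5-fold or 2-fold were recovered, with 6.06% of calls false. Over 2 simulated sets, 134 genes were changed by 1.25-fold, 134 by 1.5-fold and 132 by 2-fold, all from genes averaging at least 5 CPM at 1 mM glucose. That is fewer changed genes than the 1980 called in the real comparison. The simulated libraries also held no shift with transcript length, unlike both libraries that stood apart. For both reasons these rates may not hold for the real counts. Alternatives were DESeq2 1.42.0 size factors and Wald test, library totals, limma-voom (limma 3.58.1), other filters, a replicate block, removal of a length and GC trend, another transcript, and libraries left out. A gene of the apoptosis list is not reported here, and its list was counted without it. Counts of list genes under the alternatives were added after seeing the data.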

Additional observations from a re-analysis of the deposited data

How the results depend on the processing

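For the 10 members, 550 of 600 values kept their direction and side of the threshold under the alternatives; 13 lost the call, 24 gained it and 13 changed sign. For the other named genes the numbers were 1385, 35, 14 and 3 of 1437. The acetate comparison depended most on the processing: 1980 genes were called, against 3893 with the length and GC trend removed, 3527 with that and the replicate block, 3728 without both libraries that stood apart, 1056 in a fit of only the 8 libraries compared, and 1196 to 2956 when a library was left out. Members called there were 3, against 7, 6 and 6 in the first 3 of these and 2 to 5 with a library left out, the 5 being without 1 mM replicate 3. Leaving out a library gave 9087 to 9791 genes and 9 to 10 members for glucose, and 8421 to 8900 genes and 7 to 8 members for 10 mM glucose against acetate.

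Log2 differences that changed sign were all small. With library totals E2F6 was 0.07 for glucose, and C8orf59 was 0.05 for glucose with the length and GC trend removed, with or without the block. For acetate, E2F4 was -0.00 with DESeq2 size factors or the DESeq2 Wald test and -0.04 to 0.07 with a library left out, and E2F5 was -0.02 to 0.09 with a library left out. For 10 mM glucose against acetate, RBL2 was -0.01 with the length and GC trend removed, with or without the block, -0.04 without the libraries that stood apart and -0.04 to 0.05 with a library left out. The causes were not tested.

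Library totals in place of TMM moved the median of all genes by 0.14, 0.04 and 0.10 for glucose, acetate and 10 mM glucose against acetate, and the share of calls that were higher from 49.9% to 63.3%, from 48.4% to 65.2% and from 49.4% to 60.8%. The replicate numbers did not pair the libraries: of 12 same-numbered pairs, 3 correlated above 0.1 (range -0.365 to 0.27), and 5 of 12 libraries correlated best with their own number. With the replicate block 9613, 1780 and 8899 genes were called, and 9, 3 and 9 members; E2F1 passed for 10 mM glucose against acetate (0.19, adjusted p = 0.0456), and C8orf59 for glucose (0.0624), CDC6 for acetate (0.0594) and RBBP4 for acetate (0.0608) no longer did. On the simulated counts, changes of 1.25-fold with acetate were often missed. Those counts held fewer changed genes than were called in the real ones, so the rate may differ there.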
